A study of Mus musculus and Rattus norvegicus with 11 samples.

Results

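The cells described here are the 220 NOD control nerve cells that the study's authors named MC, the myeloid cells of peripheral nerve. They were taken by that name and by the barcode suffix of the 3 NOD control libraries, and are 220 of 15672 mouse cells with a type name, and of 5347 in the NOD control libraries. Library 1 gave 71 of them, library 2-1 gave 80 and library 2-2 gave 69. The tissue was brachial plexus and sciatic nerve from mice perfused with PBS. It was digested with enzymes, myelin was removed, live cells were sorted, and the 3′ ends of their transcripts were counted with unique molecular identifiers (UMIs). The mouse groups used are mice labelled ICAM-1-1/-NOD, read as an Icam1 knockout on the NOD strain (Icam1 knockout label, 3 libraries), NOD control mice (3 libraries) and C57BL/6 mice (3 libraries). The NOD strain is prone to autoimmunity, and NOD mice that lack Icam1, a leukocyte adhesion protein, are known for a spontaneous autoimmune neuropathy. Age, sex, the allele behind the knockout label and whether each library is a separate animal are not given in the labels. Libraries 2-1 and 2-2 were summed as NOD control 2, so NOD control has 2 samples, and p-values measure the spread between these samples only.

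Peripheral nerve holds resident macrophages, which clear myelin debris and dying cells, present antigen and are known to differ between the epineurium around the nerve and the endoneurium among its fibres. Monocytes from blood can enter the nerve and take on part of the same program. Complement C1q, made of the C1qa, C1qb and C1qc chains, tags targets for clearance, while Retnla (Relmα) is a secreted protein made by macrophages exposed to interleukin 4 or 13 through the transcription factor STAT6. In bulk or summed counts, fewer cells of a kind and less RNA per cell cannot be told apart.

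The 220 MC held 407 to 5395 UMIs per cell, with a median of 1046.5. Their summed counts were 86082 UMIs in library 1, 90343 in library 2-1 and 108012 in library 2-2. The MC of the knockout label were deeper, with medians of 2202 to 2870 UMIs per cell in the 3 libraries, against 900.5 to 1329 in the NOD control libraries. No barcode of an MC was shared between libraries, while libraries 2-1 and 2-2 shared 6 barcodes over all cells and no pair of mouse libraries shared more than 15. Levels are given as CPM, the usual scaling of UMI counts to one common total, taken over the summed counts of the named cells. They count 3′ tags and are not divided by gene length, so they are compared between samples and cell types, not between genes.

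The cells carried myeloid markers. All 10 genes of a macrophage marker list were detected in the MC, and their summed level was 6575, 6708 and 7147 CPM in libraries 1, 2-1 and 2-2, with Mertk at 0 in library 2-2. The monocyte list summed to 1011, 1262 and 1833 CPM, against 1047 in BC and 5906 in the 9 cells named pDC. The conventional dendritic list summed to 383, 332 and 546 CPM, against 295 in mySC and 859 in pDC. The mast cell list was at or near 0, with 5 UMIs in all and 7 of its 8 genes at 0. The T cell list summed to 34.9, 99.6 and 92.6 CPM, with Trac, Lck and Cd28 at 0. The neutrophil list was uneven, at 1278, 11.1 and 2000 CPM in libraries 1, 2-1 and 2-2, and the fibroblast list summed to 662, 2955 and 2639. Their part in the levels given here was not tested.

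C1qa (chromosome 4, 136895917 to 136898803, minus strand, mm10) was at 1824, 1727 and 1991 CPM in the MC of libraries 1, 2-1 and 2-2. The 3 libraries lay close together, and no other named type of at least 50 cells passed 77.8, the level that 3 counts give in the 54 cells named EP. C1qb reached 1487, 1749 and 1629 CPM and C1qc 1220, 1505 and 1759. Both lie beside C1qa on chromosome 4, and both were also at least 15.7-fold above the highest bound of any other type. Pf4 (chromosome 5, 90772435 to 90773383, plus strand), a chemokine of platelets that tissue macrophages also make, was at 1452, 1572 and 1537 CPM. Its smaller sample stood at least 18.7-fold above the other types. Ccl9 (chromosome 11, 83572919 to 83578636, minus strand), a chemokine that attracts myeloid cells, was at 1708, 1638 and 1407 CPM in MC, against 182.6 in the next type, nmSC. That was 8.3-fold, the smallest step of the 4 markers.

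Retnla (chromosome 16, 48842551 to 48844461, plus strand) had the largest ratio of all genes considered. It was at 18819 CPM in library 1, 20179 in library 2-1 and 8314 in library 2-2, against 196.7 in BC, the next type. Library 2-2 lay below the other 2 libraries, and the smaller sample was still 69.7-fold above BC. The promoters of Retnla and of C1qb and C1qc are shown because these genes lead the MC and Retnla is known to be induced through STAT6. The 250 bases before the RefSeq start (GRCm38.p6) are given 5′ to 3′ on the gene's strand, with capitals for matches on either strand of GAGGAAG, a PU.1 motif (PU.1 is the master transcription factor of macrophages), or of a STAT motif (TTC, any 4 bases, then GAA).
Retnla (chr16:48842359-48842608, plus strand): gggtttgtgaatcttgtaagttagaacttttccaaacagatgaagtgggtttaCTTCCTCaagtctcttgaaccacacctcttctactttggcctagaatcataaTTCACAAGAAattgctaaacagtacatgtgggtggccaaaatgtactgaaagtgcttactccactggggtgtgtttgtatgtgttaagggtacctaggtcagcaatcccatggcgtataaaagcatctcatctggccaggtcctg
C1qc (chr4:136892915-136893164, minus strand): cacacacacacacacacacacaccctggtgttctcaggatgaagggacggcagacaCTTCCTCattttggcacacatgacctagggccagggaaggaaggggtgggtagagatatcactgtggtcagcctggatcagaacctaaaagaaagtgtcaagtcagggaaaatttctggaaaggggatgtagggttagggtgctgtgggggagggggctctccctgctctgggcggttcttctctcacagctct
C1qb (chr4:136886201-136886450, minus strand): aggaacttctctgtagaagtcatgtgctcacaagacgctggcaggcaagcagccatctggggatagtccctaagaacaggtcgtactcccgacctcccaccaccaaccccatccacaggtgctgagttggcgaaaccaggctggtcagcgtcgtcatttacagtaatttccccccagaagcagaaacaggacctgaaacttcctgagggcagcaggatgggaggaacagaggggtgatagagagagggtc
The Retnla window held 1 match to each motif, which do not overlap, the C1qc window held 1 PU.1 match, and the C1qb window held none. Over 32851 RefSeq promoter windows of 250 bases, 10.6% held GAGGAAG and 5.85% held the STAT motif. These matches describe letters and are not binding sites.

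**Figure D1:**
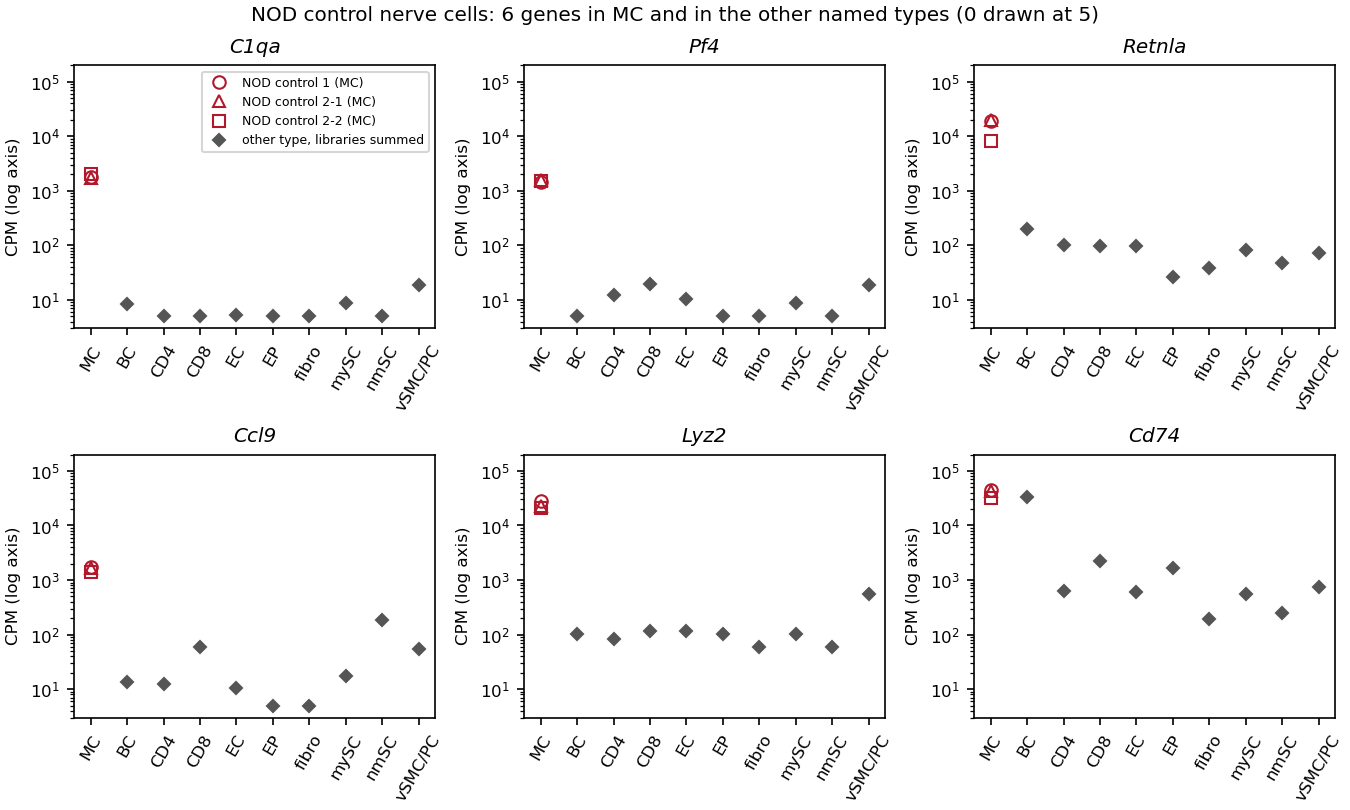
CPM (log axis) of 6 genes in NOD control MC, by library (open red symbols), and in the other named types with libraries summed (grey diamonds). C1qa, Pf4, Ccl9, Retnla and Lyz2 lie above every other type, while Cd74 in BC, at 33186, lies near the MC.

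In all, 32 of 1257 genes with at least 10 UMIs in the MC of both samples were at least 4-fold above the highest other type in both samples (2.55%). The authors named the cells from such genes, so this is a description with no test. Without library 2-2 the number was 14. The 20 with the largest ratios included Lyz2, the lysozyme of macrophages, at 27695, 22835 and 21285 CPM against 552.4 in vSMC/PC. They also included the signalling adaptors Tyrobp, at 2428, 2690 and 2916 CPM, and Fcer1g, at 2219, 2789 and 2879. Both were at least 28.5-fold above the bound in the other types. Mgl2, a lectin of alternatively activated macrophages, was at 1057, 642 and 842 CPM, and Fcrls, an Fc receptor-like gene of macrophages and microglia, at 1022, 742 and 407. Alox5ap of leukotriene synthesis, the complement factor properdin (Cfp), Wfdc17 and the endotoxin receptor Cd14 completed the non-chemokine part.

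Chemokines were the other large part. Of 12 members of the chemokine list with enough UMIs, 6 were at least 4-fold above the highest other type, beside 2.55% of all genes, with a median ratio of 4.63 against 0.605 over all genes. Ccl6 was at 2219, 3553 and 1889 CPM, and the neutrophil attractant Cxcl2 at 5518, 4970 and 5148, against 340.2 in CD4. Ccl4, a chemokine that attracts monocytes and T cells, was uneven, at 2753, 996 and 1305 CPM, and Ccl3 at 534, 310 and 1037. Of the complement list, 4 of 7 members passed the same ratio, with a median ratio of 9.70: the 3 C1q chains and Cfp. Of the macrophage identity list 6 of 15 passed, with a median of 3.16.

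Antigen presentation genes were high in MC and in BC. None of the 7 MHC class II members with enough UMIs reached 4-fold, and their median ratio was 1.17. Cd74, the invariant chain, was at 43958, 43711 and 32515 CPM in MC, against 33186 in BC. H2-Aa was at 9189, 8490 and 7851 CPM in MC against 6972 in BC. All 7 MHC class I members lay below the highest other type. The mitochondrial list lay lowest, with a median ratio of 0.123 and all 7 members below another type. The ratio takes the smaller sample, and library 1 was low in mitochondrial counts over all its barcodes. Their share there was 0.611%, against 2.01% in library 2-1 and 1.94% in library 2-2. In the MC alone it was 0.641%, 1.23% and 1.10% in the same order. The part of this library difference in the ratio was not tested. Icam1 itself was at 441, 177 and 306 CPM in NOD control MC, against 87.4 in fibro.

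Among the genes most like C1qa across 18 points (9 types in each of 2 samples, log2 scale), Mgl2 (r = 0.997), C1qb (0.994), Lrrc25 (0.986), Cd33 (0.985) and Fcgr3 (0.984) came first of 1954 genes. For Retnla they were Ccl6 (0.932), Cd68 (0.915), Lyz2 (0.906), Wfdc17 (0.902) and Bcl2a1b (0.901). The points share libraries, and the MC points set most of each value. Some points are thin: in library 1, EP was 1 cell with 462 UMIs, and BC and vSMC/PC were 7 cells each. The order of close values is therefore uncertain.

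Within the MC, the markers were unevenly spread. A Retnla UMI was found in 105 of 220 MC (47.7%, exact 95% interval 41.0 to 54.5), against 8.02% of the 723 BC, at median depths of 1046.5 and 659 UMIs. After each cell was thinned to 500 UMIs, which left out 11 MC and 146 BC, the shares were 43.1% and 5.89%. The cells that held Retnla held much of it: 64 cells had at least 10 UMIs, the highest had 314, and the 22 cells with the most held 67.2% of all 4341 UMIs. C1qa was flatter, with 40.5% of its UMIs in the top 22 cells and at most 19 UMIs in a cell. It was found in 118 of 220 MC (53.6%), against 0.692% of BC. Ccl9 was found in 61.4% of MC and 10.9% of nmSC, Pf4 in 45.0% of MC and 0.138% of BC, and Lyz2 in 99.1% of MC and 7.19% of BC. Cx3cr1, the fractalkine receptor of microglia and many resident macrophages, was found in 21 of 220 MC (9.55%) and in 0.277% of BC.

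C1qa and Pf4 were mostly in the same cells: 90 MC held both, 28 C1qa alone, 9 Pf4 alone and 93 neither. C1qa and Retnla overlapped less, with 65 MC holding both, 40 Retnla alone, 53 C1qa alone and 62 neither. Plac8, a gene of monocytes that other leukocytes also express, was found in 40 MC (18.2%), of which 1 held C1qa, and in 27.0% of BC. After thinning to 500 UMIs the shares were 14.4% of MC and 21.7% of BC. These counts depend on depth, and no test was made.

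Lyz1, the lysozyme known from Paneth cells, was spread unevenly over the cells. It had 795 UMIs in 38 MC, and 10 cells held 82.8% of them. Its level was 5774 CPM in library 1, 2823 in library 2-1 and 398 in library 2-2. Lyz1 lies at 117287797 to 117292868 on the minus strand of chromosome 10, next to its copy Lyz2 at 117277331 to 117282321. The copies are alike, and how reads matching both were counted is not given in the sources used here, so Lyz1 is uncertain in level. Their promoters show the likeness, with 79.4% of 252 aligned positions identical, and neither holds a match to either motif.
Lyz1 (chr10:117292869-117293118, minus strand): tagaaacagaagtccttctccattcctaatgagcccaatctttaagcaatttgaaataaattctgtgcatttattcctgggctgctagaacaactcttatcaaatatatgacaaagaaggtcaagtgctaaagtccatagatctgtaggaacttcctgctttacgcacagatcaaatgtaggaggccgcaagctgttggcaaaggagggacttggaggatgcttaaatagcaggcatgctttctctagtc
Lyz2 (chr10:117282273-117282522, minus strand): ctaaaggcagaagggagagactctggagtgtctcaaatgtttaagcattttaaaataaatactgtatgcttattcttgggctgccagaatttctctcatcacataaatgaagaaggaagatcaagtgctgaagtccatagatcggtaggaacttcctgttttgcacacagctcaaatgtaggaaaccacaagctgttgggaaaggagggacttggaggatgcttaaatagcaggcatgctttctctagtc
Lyz1 and Lyz2 differed widely in spread over cells: Lyz2 had 33.8% of its UMIs in the top 22 cells and Lyz1 97.5%. Of the 38 MC with a Lyz1 UMI, 31 also held Retnla.

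Grouping the 220 MC by expression (Leiden, resolution 0.4) gave 4 sub-groups, each found in all 3 libraries. They are called by genes among the 15 with the largest ratio over the other MC, and since the groups were made from such genes, their values are a description. The Ccl12/Lyve1 cells were 86 (30, 30 and 26 in libraries 1, 2-1 and 2-2), the Ogt/Psd3 cells 59 (24, 20 and 15), the Lyz1 cells 31 (10, 13 and 8) and the S100a8/Plac8 cells 44 (7, 17 and 20). The last were 9.86% of the MC of library 1, 21.2% of library 2-1 and 29.0% of library 2-2.

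The Ccl12/Lyve1 cells carried C1qa at 4657 CPM, Pf4 at 3883 and Apoe, the lipid carrier, at 27120. They held nearly all of Lyve1, the hyaluronan receptor, at 469 CPM against 20.1 in the other MC, and of Ccl12, at 1067 against 25.1. A Lyve1 UMI was found in 33.7% of these cells and a Ccl12 UMI in 25.6%. The haemoglobin scavenger Cd163, the scavenger receptor Stab1 and the folate receptor Folr2 were at 317, 305 and 622 CPM. Their Cxcl2 level was 10522 CPM, and Ccl4 stood at 4481 against 432 in the other MC. Immediate early genes, which tissue dissociation can also induce, were high in the same cells: Fos was at 5220 CPM here, 894 in the Ogt/Psd3 cells, 3386 in the Lyz1 cells and 1557 in the S100a8/Plac8 cells. The part of that response in the grouping was not tested.

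The Ogt/Psd3 cells had Retnla at 24580 CPM and H2-Aa at 11579, with C1qa at 1385 and Cxcl2 at 98.0. Retnla and H2-Aa were at levels close to those in the Lyz1 cells, and the genes that lead this sub-group, such as Ogt with 12 UMIs and Psd3 with 11, had few UMIs. The Lyz1 cells had Lyz1 at 9379 CPM, Retnla at 22418, H2-Aa at 11728 and lipoprotein lipase (Lpl) at 908, with C1qa at 259 and Lyve1 at 0. A Lyz1 UMI was found in 51.6% of these cells. Their Lyz1 level was 15714 CPM in library 1, 8816 in library 2-1 and 1196 in library 2-2. They were the deepest group, with a median of 1841 UMIs per cell against 891.5 in the Ccl12/Lyve1 cells. Their Retnla level was 33658 CPM in library 1, 26233 in library 2-1 and 2079 in library 2-2, where library 2-2 stood apart. The monocyte chemokine receptor Ccr2 was found in 61.3% of the Lyz1 cells and 18.6% of the Ccl12/Lyve1 cells. The macrophage list summed to 15331 CPM in the Ccl12/Lyve1, 5477 in the Ogt/Psd3, 1916 in the Lyz1 and 1183 in the S100a8/Plac8 cells. The conventional dendritic list summed to 176, 760, 591 and 83.0 CPM in the same order. Cd209a alone held 50 of the 62 UMIs of this list in the Ogt/Psd3 cells and 34 of the 41 in the Lyz1 cells.

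The S100a8/Plac8 cells had no C1qa UMI, and their Retnla level of 62.3 CPM was below that of BC. Several monocyte genes were high here: Plac8 was at 2741 CPM, Ace at 311, Cd300e at 291, Fcgr4 at 249 and Treml4 at 228. A Plac8 UMI was found in 77.3% of these cells and an Ace UMI in 29.5%. Cd300e, Fcgr4 and Treml4 were found in 15.9%, 18.2% and 20.5%. All 10 genes of the monocyte marker list were detected, with a summed level of 4547 CPM, against 411 to 1095 in the other sub-groups. Plac8 held 132 of the 219 UMIs of that list here. Ccr2, also on the list, was lowest here, at 104 CPM against 282, 551 and 605 in the Ccl12/Lyve1, Ogt/Psd3 and Lyz1 cells. The S100a8, S100a9 and Retnlg UMIs, genes of neutrophils, were another matter: 4 of the 44 cells held 99.7% of them. Of these 4 cells, 1 was in library 1 and 3 in library 2-2, and none had a Plac8 UMI, while 34 of the other 40 did. Because its leading genes mix both kinds, the sub-group is given no cell type name. Cebpb, a transcription factor of myeloid cells, was at 4277 CPM here and 392 in the Ogt/Psd3 cells. Finer resolutions of 0.6, 0.8 and 1 gave 5, 5 and 6 groups and kept all 31 Lyz1 cells in 1 group and all 44 S100a8/Plac8 cells in another. The larger sub-groups broke up: the group that held the most of the 86 Ccl12/Lyve1 cells held 76, 68 and 47 of them at these resolutions, and that of the 59 Ogt/Psd3 cells held 45, 43 and 45.

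**Figure D2:**
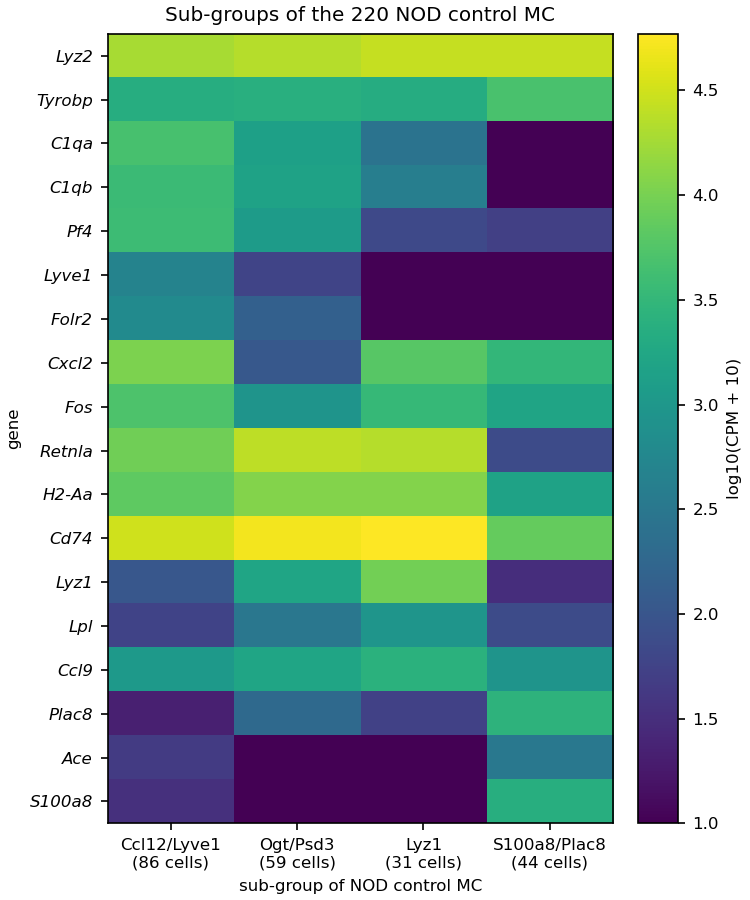
Levels of 18 genes, as log10 of CPM plus 10 (colour), in the 4 sub-groups of NOD control MC (columns). C1qa is at 4657 CPM in the Ccl12/Lyve1 cells and at 0 in the S100a8/Plac8 cells, while Lyz2 is high in every column.

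The share of MC was taken of the leukocyte types and of all cells with a type name. Of the leukocyte types, MC were 4.46%, 4.29% and 4.71% in the 3 knockout label libraries, against 57.3% in NOD control 1 (71 of 124) and 11.1% in NOD control 2 (149 of 1338). The groups did not overlap, but the 2 NOD control samples lay far apart: the means were 4.49% ± 0.21 (SD, n = 3) and 34.2% ± 32.6 (SD, n = 2). The exact permutation test (two-sided) returned p = 0.1, which is the lowest value possible for 3 against 2 samples. Of all cells with a type name, MC were 4.11% ± 0.20 in knockout label nerves and 4.42% ± 0.92 in NOD control nerves (SD, n = 3 and 2), a difference of -0.31 percentage points (exact permutation p = 0.8).

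**Figure D3:**
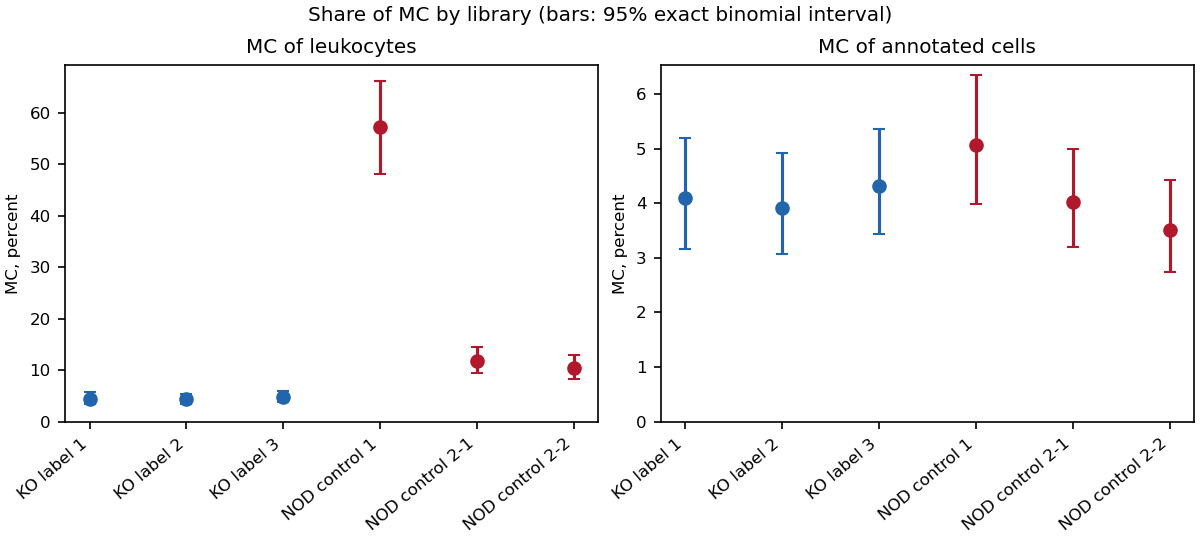
Share of MC in percent by library, of leukocytes (left) and of all cells with a type name (right), with exact 95% binomial intervals. Of leukocytes, NOD control 1 stands at 57.3% and the knockout label libraries at 4.29% to 4.71%, while of all named cells the libraries overlap.

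The next comparison asked how MC gene expression in knockout label nerves differs from that in NOD control nerves. Icam1, the gene in the label, was at 526, 590 and 654 normalised CPM in the knockout label MC, against 519 and 295 in NOD control MC (log2 fold change 0.61, SE 0.27, edgeR adjusted p = 0.141). Without NOD control 1 it passed, at 0.99 (edgeR adjusted p = 0.00928). The position of the deletion relative to these 3′ tags is not given in the sources used here, so this level does not check the label. Of 2981 genes tested, 487 passed an adjusted p under 0.05 (16.3%), 255 higher (8.55%) and 232 lower (7.78%) in the knockout label, and the median log2 change of all genes was 0.01. DESeq2 called 265 genes, all among these 487. Ribosomal protein genes were 23 of the 232 lower genes, of 24 called either way. How many were tested was not counted, so their share cannot be set against that of all genes. In the self-test on simulated counts, 86.5% of genes changed by a log2 of 2 were recovered and 26.9% of those changed by 1.

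Of the 4 markers, Retnla and Pf4 fell most, Ccl9 fell less and C1qa did not pass the threshold. Retnla was at 17.7, 885 and 452 normalised CPM in the knockout label samples, against 22121 and 16356 in the NOD control samples. The groups lay far apart, with a log2 fold change of -5.42 (SE 0.64, edgeR adjusted p = 3.09e-05), and of -6.35 without knockout label 2. Pf4 was at 59.1, 12.6 and 61.1 normalised CPM, against 1707 and 1851 (log2 fold change -5.29, SE 0.32, edgeR adjusted p = 6.95e-08). Ccl9 fell to 260, 521 and 361 normalised CPM, against 2007 and 1803 in NOD control (-2.32, SE 0.25, edgeR adjusted p = 1.98e-05). C1qa was at 2037, 892 and 1571 normalised CPM in the knockout label and 2144 and 2230 in NOD control (log2 fold change -0.54, SE 0.26, edgeR adjusted p = 0.189), and passed without knockout label 1 (-0.82, edgeR adjusted p = 0.0469).

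Most genes of a list known from epineurial macrophages were lower in the knockout label. Of its 14 tested members 12 fell, Retnla and Pf4 among them, and 1 rose, beside 16.3% called of all genes, with a median log2 change of -3.11 against 0.01 over all genes. Folr2 had 3 UMIs in all in the knockout label MC and 64 in NOD control MC, a ratio of 0.0246 (exact 95% interval 0.00495 to 0.0752). Lyve1 had 2 UMIs and 44 UMIs, a ratio of 0.0239 (0.00280 to 0.0915). The mannose receptor Mrc1 was at 29.5, 25.1 and 42.8 normalised CPM in the knockout label, against 314 and 216 in NOD control (log2 fold change -2.93, edgeR adjusted p = 8.08e-05). Of the scavenger and engulfment list, 7 of 10 tested fell and none rose, among them Gas6 (-3.70), Cd36 (-3.52) and Cd163 (-3.27). Without knockout label 3, Gas6 was at -4.81 and Cd163 at -4.34. Of the endoneurial and microglia-like list, 3 of 9 tested fell and 1 rose, with a median of -0.45. Fcrls, one of its members, fell by 4.45 on the log2 scale. Of the macrophage identity list, 2 of 15 tested fell and 5 rose, with a median of -0.11. Lyz1 fell by 5.44 on the log2 scale. Its log2 fold change was -7.80 without knockout label 2, -4.22 without NOD control 1, -6.07 without NOD control 2 and -8.23 with equal numbers of cells per sample. The epineurial and scavenger lists overlap, since Mrc1, Cd163, Gas6 and Lyve1 are in both. All lists were chosen with earlier results of these data known.

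**Figure D4:**
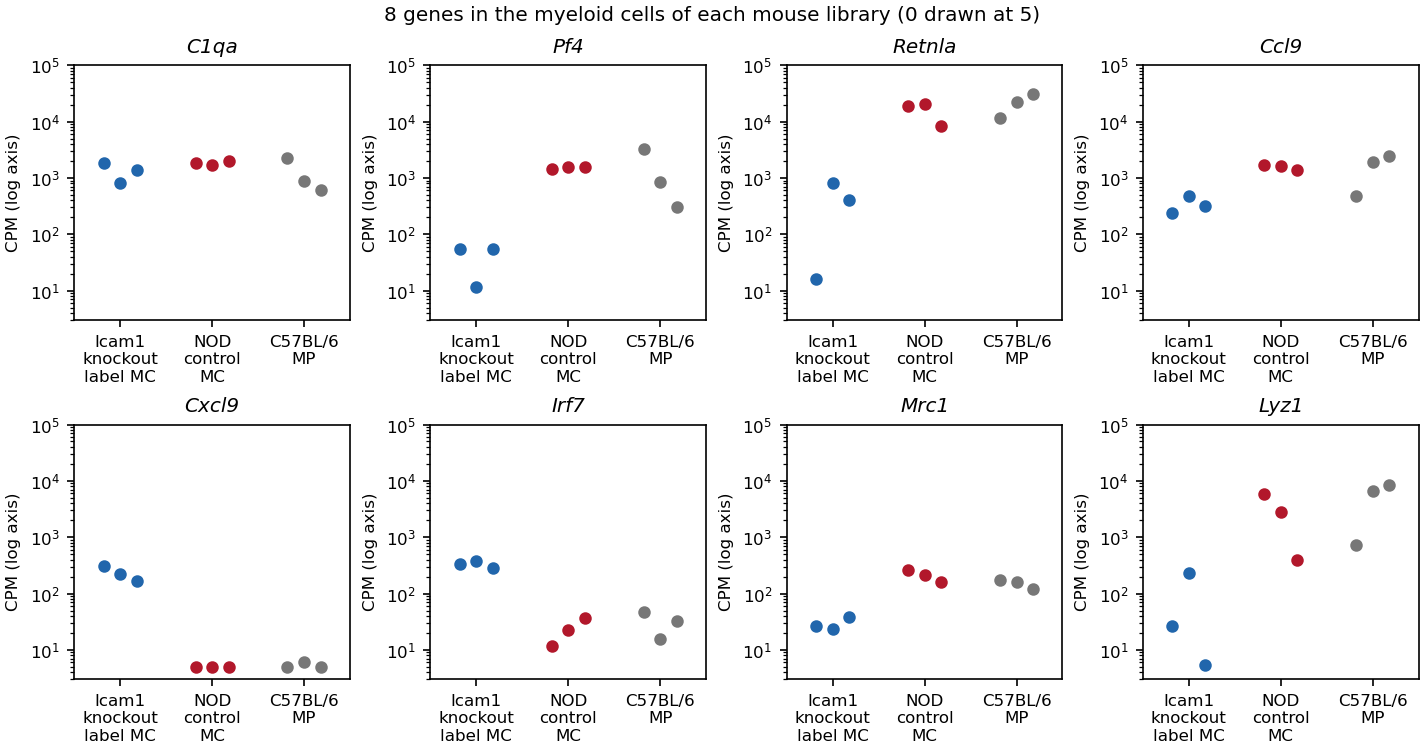
CPM (log axis, 0 drawn at 5) of 8 genes in the MC of the Icam1 knockout label, the MC of NOD control and the MP of C57BL/6, 1 point per library. Retnla, Pf4, Mrc1 and Lyz1 are lower and Cxcl9 and Irf7 higher in all 3 knockout label libraries than in the NOD control libraries, while C1qa overlaps.

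Interferon-induced genes were higher in the knockout label MC. Over all genes tested, 8.55% were called higher and 7.78% lower. Of the interferon gamma list, 9 of 13 tested rose and none fell, and of the type I interferon list 10 of 12 rose and none fell. The median log2 changes were 3.81 and 2.39. Irf7, a transcription factor of the type I interferon response, was at 360, 421 and 318 normalised CPM in the knockout label, against 13.7 and 36.1 in NOD control (log2 fold change 3.63, SE 0.42, edgeR adjusted p = 2.99e-05), with a log2 fold change of 4.72 without NOD control 2. Bst2, another of the type I list, is also a marker of plasmacytoid dendritic cells, and the summed list of those markers was at 817, 501 and 562 CPM in the knockout label MC, against 279, 266 and 333 in the NOD control libraries. Bst2 held most of it, with 136, 79 and 92 UMIs in the knockout label and 17 and 31 in NOD control, while Siglech had 4, 1 and 0 against 3 and 5, and Klk1 was at 0 in all. Cxcl9, which attracts T cells, had 58, 39 and 30 UMIs in the knockout label and none in NOD control, at least 22.2-fold higher when 3 counts are set for the NOD control group. Cxcl13, the B cell chemokine, had 166, 15 and 125 UMIs against none (at least 53.6-fold), and complement factor B (Cfb) had 33, 30 and 33 against none (at least 16.8-fold). Serpina3g and Il18bp were also at 0 UMIs in NOD control (at least 16.5-fold and 12.3-fold higher). Gm15056 was too, with 35, 37 and 2 UMIs in the knockout label, but its call was lost with DESeq2 and without NOD control 2. Of the MHC class I list, 13 of 14 tested rose (median log2 change 1.77), among them Psmb8 (1.89) and Tap2 (2.43), which make and carry peptides. Of the MHC class II list, beside 8.55% of all genes, 3 of 10 rose. H2-Aa was one of these (0.57, edgeR adjusted p = 0.0339), a call lost when any 1 of the 3 knockout label samples was left out.

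The chemokine list was split, with 5 of 17 tested higher and 8 lower, median -0.91. Beside these and the counts below, 8.55% of all genes were higher and 7.78% lower. Ccl5 was at 1701, 2562 and 2384 normalised CPM in the knockout label, against 0 and 18.0 in NOD control. Ccl5 is also made by T and NK cells, and T cell markers moved with it: the summed T list was at 406, 219 and 442 CPM in the knockout label MC, with all 8 genes detected, and at 34.9 to 99.6 in NOD control MC. The monocyte list stood at 2851 to 3689 CPM in the knockout label and 1011 to 1833 in NOD control, and the Schwann cell list at 92.0 to 137 and 232 to 996. Their part in the changes was not tested. Of the cytokine and inflammasome list, 6 of 12 tested rose and none fell, with a median log2 change of 1.26. Il1rn, the interleukin 1 receptor antagonist, had 21, 49 and 47 UMIs in the knockout label, against 0 and 2 in NOD control (ratio of summed levels 30.7, exact 95% interval 8.32 to 257). Il1b, the cytokine itself, was at 632, 571 and 562 normalised CPM in the knockout label, against 41.0 and 283 in NOD control (log2 fold change 1.62, edgeR adjusted p = 0.00888), a call that DESeq2 did not make. Leaving out NOD control 1 gave it a log2 fold change of 1.05, and leaving out NOD control 2 one of 3.88. The inflammasome sensor Nlrp3 was 2.35 higher on the log2 scale (edgeR adjusted p = 0.0178). It was at 3.44 without NOD control 2, and its call was lost with equal numbers of cells per sample (2.23, edgeR adjusted p = 0.0729). Immediate early genes were lower, with 7 of 16 tested down and none up, led by Egr1 (-2.71, and -3.44 without knockout label 1). The mitochondrial list had 2 of 10 tested higher, beside 8.55% of all genes. The mitochondrial share over all barcodes was 0.611% in NOD control library 1, 2.01% in 2-1 and 1.94% in 2-2. It was 2.40% to 2.61% in the knockout label libraries. Median cell depth was also higher in the knockout label. The part of this share and of depth in the changes was not tested.

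**Figure D5:**
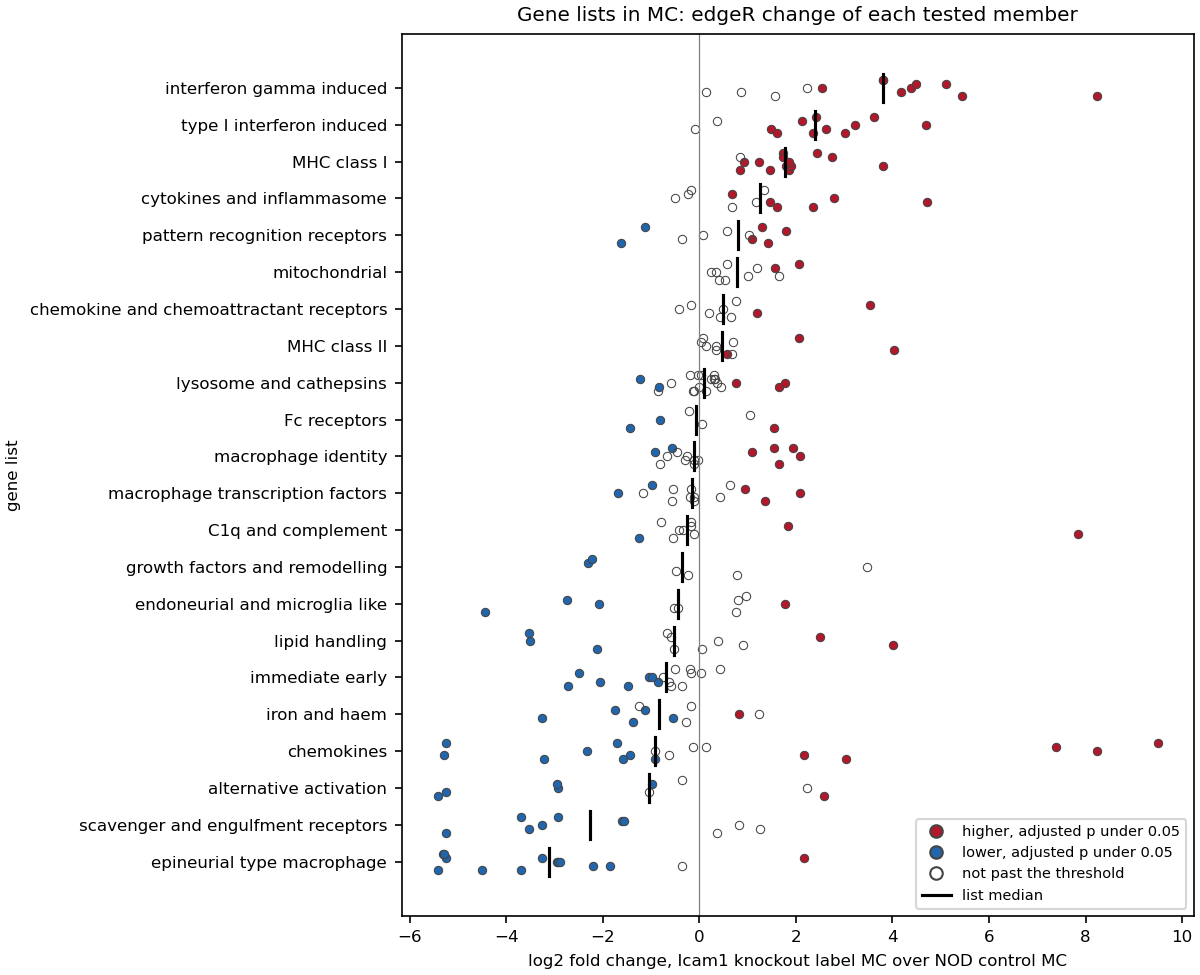
Change (log2, Icam1 knockout label MC over NOD control MC) of each tested member of 22 gene lists, with filled points past an edgeR adjusted p of 0.05 and a bar at each list's median. The interferon gamma list has its median at 3.81 and the epineurial list at -3.11.

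Set against C57BL/6 nerve cells named MP, NOD control MC differed in few genes. C57BL/6 also has cells named MC, 12, 24 and 10 in libraries 1, 3 and 4, and the main run left these out. Of 1349 genes tested, 27 passed an edgeR adjusted p of 0.05 (2%), 15 higher (1.11%) and 12 lower (0.89%) in NOD control. The number rested on single samples: it was 5 without NOD control 2, 86 without C57BL/6 1 and 15 without C57BL/6 3. With the C57BL/6 cells named MC joined to MP, 23 of 1677 genes tested passed. None of the 4 markers passed in the main run. C1qa passed without C57BL/6 1, at a log2 fold change of 1.17 (edgeR adjusted p = 0.0452). Retnla was at 21398 and 16207 normalised CPM in NOD control MC, against 17447, 26956 and 35266 in C57BL/6 MP (log2 fold change -0.50, SE 0.50, edgeR adjusted p = 0.839). Both NOD control values for C1qa, Pf4 and Ccl9 lay inside the C57BL/6 range. Pf4 varied most in C57BL/6 MP, at 4993, 1012 and 354. Here a p that misses the threshold does not show that the strains are alike: in the self-test, 12.4% of genes changed by a log2 of 1 were recovered.

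Of the 12 lower genes (0.89% of all tested), 7 were ribosomal protein genes such as Rps18 (-5.53) and Rps12 (-5.70). In all, 8 ribosomal protein genes were called. How many were tested was not counted, so their share cannot be set against that of all genes. Gm10260, with 212 and 389 UMIs in NOD control and none in C57BL/6, led the higher genes, followed by S100a9, S100a8 and Retnlg. The counts were made on the mm10 genome, which is that of C57BL/6. Ribosomal protein genes have near-identical copies, so these genes are uncertain, and the part of strain differences in placing their reads was not tested. S100a8 had 17 and 97 UMIs in NOD control MC and none in C57BL/6 MP. The C57BL/6 cells with neutrophil genes carry the name MC in that strain. Once they are joined to MP, the folds of S100a8 and S100a9 turn negative. The log2 fold change of Retnlg then falls from 8.82 to 0.62 (edgeR adjusted p = 0.915). Klf2 and Cebpb were also higher, at 2.15 and 3.71 on the log2 scale (edgeR adjusted p = 0.0258 and 0.0259). Without NOD control 2 the calls of Klf2, Cebpb, S100a8, Rps18 and Rps12 were lost, and without C57BL/6 3 those of Klf2, Cebpb and Retnlg. Klf2 was also lost without NOD control 1 or C57BL/6 4, and Rps12 without NOD control 1, while Cebpb was at 2.28 without NOD control 2 and 4.34 without NOD control 1, and Rps12 at -6.95 without NOD control 2 and -4.62 without C57BL/6 1. No member of the complement, chemokine, MHC class II, interferon gamma or epineurial lists passed (0 of 7, 12, 7, 2 and 12 tested). With 2% of all genes called, counts of 0 in lists this small are near the overall share. The immediate early list had 1 call of 16 tested, Klf2, and the macrophage transcription factor list 1 of 11, Cebpb. Of all 1349 genes, 142 had an unadjusted p under 0.05, and DESeq2 called 37 genes.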

How the data were processed

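Single nerve cells of 9 mouse libraries were used; rat libraries were not used here. Per the submitters' processing notes, the authors made UMI counts with Cell Ranger 3.0.2 on mm10, and the deposited counts are raw whole numbers per gene and barcode, with the authors' cell names in a deposited table. UMI counts were summed per sample over the named cells (at least 20 per sample) and tested with edgeR 4.0.16 (quasi-likelihood, TMM, filterByExpr with a minimum count of 10, Benjamini-Hochberg over all genes tested), and DESeq2 1.42.0 as an alternative. Summed MC counts were 86082 to 108012 UMIs per NOD control library; intervals and floors of 3 counts cover counting error only. Sub-groups came from scanpy 1.11.5 with leidenalg 0.10.2. Doublets were kept: Scrublet called 0.214% to 1.34% of barcodes per library, none of the NOD control MC, and in several libraries under 0.5%, a rate at which it has not worked. Tests were checked on simulated data. Members, markers and gene lists were chosen with earlier results of these data known. Named genes are C1qa, Pf4, Retnla, Ccl9 and Icam1, the 20 leading genes, the list members of highest level, up to 4 called members per list, the 6 largest changes each way per comparison, and the 5 genes most like C1qa and Retnla; sub-group genes and Lyz1's spread over cells were picked after their values were seen. Some named genes are not reported here.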

Additional observations from a re-analysis of the deposited data

How the results depend on the processing

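The comparison of knockout label with NOD control MC called 487 genes. Every alternative run stayed within 1.5 times of this (350 to 576, leave-one-out 350 to 529) except DESeq2, with 265. With a replicate block the count was 426. Deviations from the group mean had correlations of 0.057 and 0.053 over the 2 pairs of samples with the same number. With 2 NOD control samples these deviations mirror each other, so the values cannot settle whether samples were paired. Of 77 named genes, 17 lost a call and 2 gained one under at least 1 alternative, and none reversed. For NOD control MC against C57BL/6 MP the 27 calls became 83 with no filter, 50 with libraries 2-1 and 2-2 apart, 11 with equal cell numbers and 5 to 86 with 1 sample left out. With the C57BL/6 cells named MC added, S100a9 stood at -1.71, S100a8 at -2.70 and Ccl9 at 0.06 on the log2 scale. With equal cells Pf4 stood at 0.46. With a batch term for the low mitochondrial share of library 1, chosen after seeing the data, Pf4 was 0.25 and Ccl9 0.31. Over samples left out, C1qa ran from -0.11 to 1.17, Pf4 from -0.81 to 1.23 and Ccl9 from -0.52 to 0.22. The MC share difference kept its sign, from -52.8 to -6.65 percentage points with 1 sample left out. The 32 leading genes became 99 at a fold of 2 and 14 to 40 with 1 library left out. The causes were not tested. Depth limits genes under about 10 UMIs per sample.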
